A study of Mus musculus with 9 samples.

Results

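The SR and hnRNP splicing regulators were taken as every gene whose symbol begins with Srsf and a digit, Hnrnp, Tra2 or U2af in both deposited expression tables, which gave 36 of 24318 genes. They fall into 11 SR protein genes, 20 hnRNP genes, and 5 Tra2 and U2af genes. RNA was sequenced from N2A cells, a mouse neuroblastoma line, labelled wild type for scramble siRNA, EXOSC3 knockdown for siEXOSC3 and DDX1 knockdown for siDDX1, with 3 libraries per condition and 9 in all. All groups were transfected with siRNA, including the controls, and carry the label untreated otherwise. EXOSC3 is a cap subunit of the RNA exosome, the complex that trims and degrades RNA from its 3′ end, and DDX1 is a putative RNA helicase. A knockdown leaves part of the transcript in place, so neither group is a null. Each p-value measures the spread between these libraries of 1 cell line.

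SR proteins carry an RNA recognition motif and a tail rich in arginine and serine, and they bind exonic enhancers and recruit the splicing machinery. The Tra2 proteins are SR-like activators, and U2AF binds the polypyrimidine tract and the AG at the 3′ splice site. The hnRNP proteins coat nascent RNA and often act in the opposite direction, by repressing splice sites, while also taking part in RNA export, stability and packaging. Several genes of these families control their own level through alternative exons that bring in an early stop codon, so that the transcript is degraded by nonsense-mediated decay.

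The start sites of the members that lead the results below are shown first, as the 100 bases before an annotated transcript start. They were read from RefSeq on GRCm38.p6, where 33 of the 36 members had a window. Hnrnpll, Hnrnpul2 and U2af2 had none. Capitals mark matches on either strand to any of 5 motifs. These were the CCAAT box, the Sp1 box spelled GGGCGG, the TATA box spelled TATAAA, the ETS site spelled CCGGAAG and the E-box spelled CACGTG. Matches may overlap. Srsf3, Srsf6 and Srsf7 are the SR genes with the largest falls in siEXOSC3, Hnrnph2 is the hnRNP gene with the largest fall, and Hnrnpa3 is the single member that rose.
Srsf3 (chr17:29032560-29032659, plus strand): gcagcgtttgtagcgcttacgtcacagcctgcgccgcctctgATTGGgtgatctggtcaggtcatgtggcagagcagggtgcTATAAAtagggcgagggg
Srsf6 (chr2:162931408-162931507, plus strand): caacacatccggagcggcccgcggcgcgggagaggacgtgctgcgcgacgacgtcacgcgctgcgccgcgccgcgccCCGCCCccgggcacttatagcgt
Srsf7 (chr17:80207306-80207405, minus strand): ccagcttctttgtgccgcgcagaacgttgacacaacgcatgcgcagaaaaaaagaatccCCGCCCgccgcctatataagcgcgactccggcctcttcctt
Hnrnph2 (chrX:134601079-134601178, plus strand): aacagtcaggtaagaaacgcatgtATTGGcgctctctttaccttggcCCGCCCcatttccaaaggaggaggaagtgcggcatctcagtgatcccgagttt
Hnrnpa3 (chr2:75659159-75659258, plus strand): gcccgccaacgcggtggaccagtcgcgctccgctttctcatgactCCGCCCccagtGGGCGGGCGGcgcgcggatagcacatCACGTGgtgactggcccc

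The windows of Srsf3 and Srsf2, an SR protein of exonic enhancers, were the member windows with TATAAA, 2 of 46 (4.35%, against 5.56% of all 32851 windows). GGGCGG or its complement stood in 63.0% of the member windows and in 24.7% of all windows, and CCAAT in 37.0% and 18.9%. CCGGAAG stood in 8.70% of member windows and 4.52% of all, and CACGTG in 6.52% and 3.17%. The mean GC content was 68.3% in the member windows and 55.6% in all, and the part of GC content in the share of GC-rich motifs was not tested. All windows came from 27025 genes, more than the 11242 tested in siEXOSC3, and the shares were not counted over the tested genes alone. A match is a run of letters and not a bound site, and several windows can belong to 1 gene.

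In scramble cells the members ranged over nearly 2 orders of magnitude, and most were far above a typical gene. FPKM, the number of fragments per kilobase of transcript, scaled to the fragments of the library, is scaled for length and so allows genes to be compared. The median member stood at 122 FPKM, against 14.1 FPKM for all genes tested. Hnrnpa1, a repressor of exon inclusion, was the highest at 834 ± 47.6 FPKM (SD, n = 3) and ranked 115 among 11242 genes. It was followed by Hnrnpab at 489 ± 5.29 FPKM, Hnrnpu (a nuclear scaffold protein) at 483 ± 14.3 FPKM, Hnrnpk (which binds C-rich RNA and DNA) at 364 ± 14.8 FPKM and Hnrnpf (a binder of G-rich runs) at 364 ± 16.4 FPKM (SD, n = 3 each). The libraries of Hnrnpab overlapped those of Hnrnpu, and those of Hnrnpk overlapped those of Hnrnpf, so their order is not set beyond the spread. Over the whole ladder, 15 of 34 neighbouring pairs overlapped.

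The SR genes had a median of 114 FPKM and ran from Srsf4 at 9.55 FPKM to Srsf3 at 165 FPKM. The Tra2 and U2af genes had a median of 95.7 FPKM, from U2af1l4 at 19.4 FPKM to U2af1, the small U2AF subunit, at 267 FPKM. The hnRNP genes had a median of 124 FPKM, with Hnrnph3 lowest at 19.2 FPKM. Srsf12 is listed at no more than 0.0883 FPKM in any library, was not tested, and is the 1 member without a fold change.

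**Figure D1:**
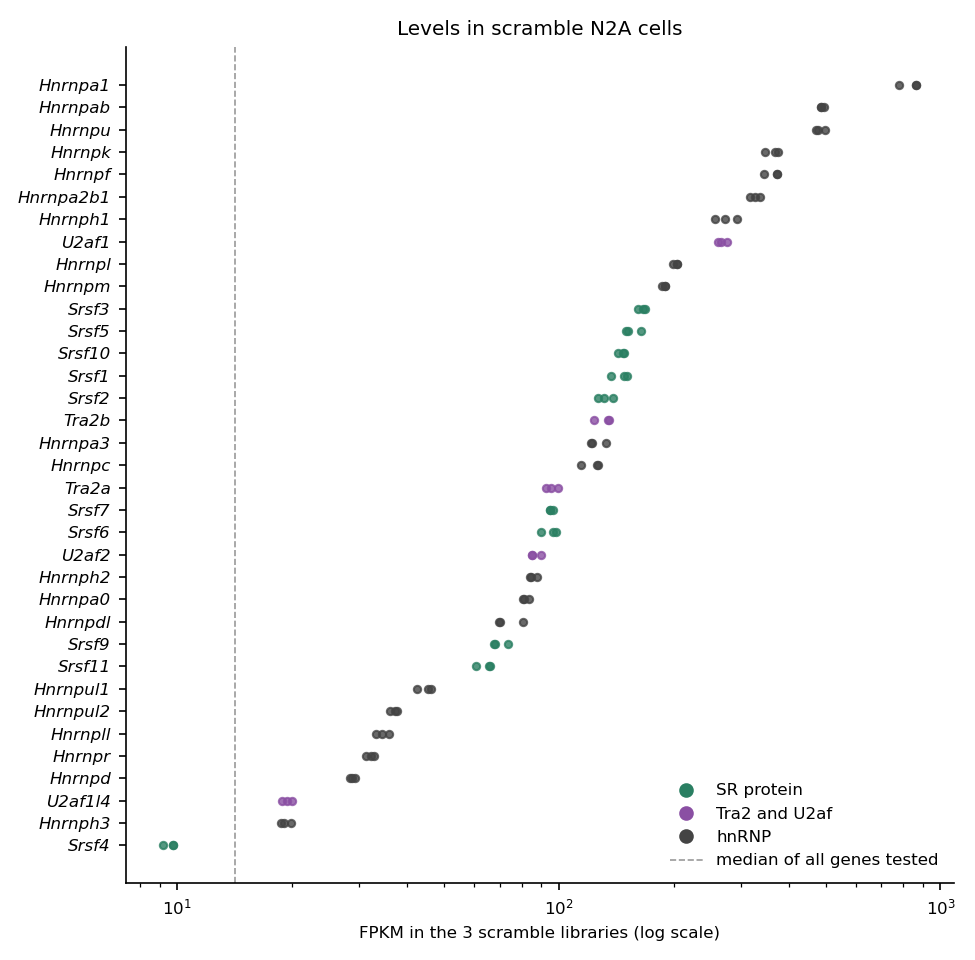
FPKM in the 3 scramble libraries of the siEXOSC3 table (horizontal axis, log scale) for the 35 members tested, ordered by mean, with points coloured by family and a dashed line at the median of all genes tested. Hnrnpa1 sits highest at a mean of 834 FPKM, and Srsf4 is the member left of the dashed line at 14.1 FPKM.

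Before the members were compared, the targeted transcripts were checked. Exosc3 was left at 15.5% ± 1.90 of its scramble mean in siEXOSC3 and Ddx1 at 24.4% ± 2.99 in siDDX1 (SD, n = 3). Of 15 markers of neuroblastoma and the sympathetic lineage, 12 stood at 1 FPKM or more in all 9 libraries. Of 12 markers of immune, fibroblast, endothelial, astrocyte and oligodendrocyte cells, 9 were under 1 FPKM in all libraries. Pecam1 and Mbp were at 1 FPKM or more throughout. The number of reads per library cannot be read from FPKM, so no counting interval is given.

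The first comparison asks how depletion of the exosome subunit moved the splicing regulators. In siEXOSC3, 13 of the 35 members tested decreased (37.1%), against 15.7% of all 11242 genes, and 1 increased (2.86%), against 16.7% of all genes. A decrease or increase here means an adjusted p under 0.05 from limma on log2(FPKM + 1), adjusted by Benjamini-Hochberg over all genes tested. The decreases took 6 of 10 SR genes (Srsf1, Srsf2, Srsf3, Srsf6, Srsf7 and Srsf10) and 7 of 20 hnRNP genes (Hnrnpa1, Hnrnpa2b1, Hnrnpdl, Hnrnpf, Hnrnph2, Hnrnpm and Hnrnpul2). The share of all genes at an unadjusted p under 0.05 was not counted. Of the 5 Tra2 and U2af genes, 0 passed the test in limma, and 1 had a fold change below 0 at that threshold (Tra2b, with libraries that overlapped scramble). Without siEXOSC3 replicate 2, 3 of these 5 decreased (Tra2a, Tra2b and U2af1). The median log2 fold change was -0.18 over the members and -0.01 over all genes, and the members' median ran from -0.09 (without siEXOSC3 replicate 3) to -0.24 (without siEXOSC3 replicate 2) with 1 library left out. By family it was -0.28 for SR, -0.18 for Tra2 and U2af and -0.13 for hnRNP genes. In all, 28 members had a fold change below 0, where 51.9% of all genes did.

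The members are well expressed, and among genes with a mean of at least 5 FPKM the shares were 18.7% decreased and 15.7% increased. The count rests on single libraries. It was 2 without scramble replicate 1 (5.17% of all genes decreased in that fit), 4 without scramble replicate 2 (8.27%), scramble replicate 3 (7.15%) or siEXOSC3 replicate 1 (7.73%), and 19 without siEXOSC3 replicate 2 (22.3%). Without siEXOSC3 replicate 3 it was 12 (13.6%).

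The 3 siEXOSC3 libraries differed from each other more than the scramble libraries did. Replicate 3 was the lowest of the 3 for all 13 decreased members and for 28 of the 35 tested, and replicate 2 the highest for 11 of the 13. This order was not counted over all genes. The median deviation of the SR genes from their scramble means was -0.28, -0.16 and -0.48 on the log2 scale in replicates 1, 2 and 3, against -0.03 to 0.02 in the scramble libraries. Over all genes tested it was -0.0077, -0.0088 and -0.020 in siEXOSC3 replicates 1, 2 and 3. Exosc3 itself was left at 15.5%, 17.4% and 13.6% of scramble in replicates 1, 2 and 3, so the library with the least Exosc3 had the lowest SR genes and the library with the most had the highest. The part of the residual Exosc3 in that order was not tested.

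**Figure D2:**
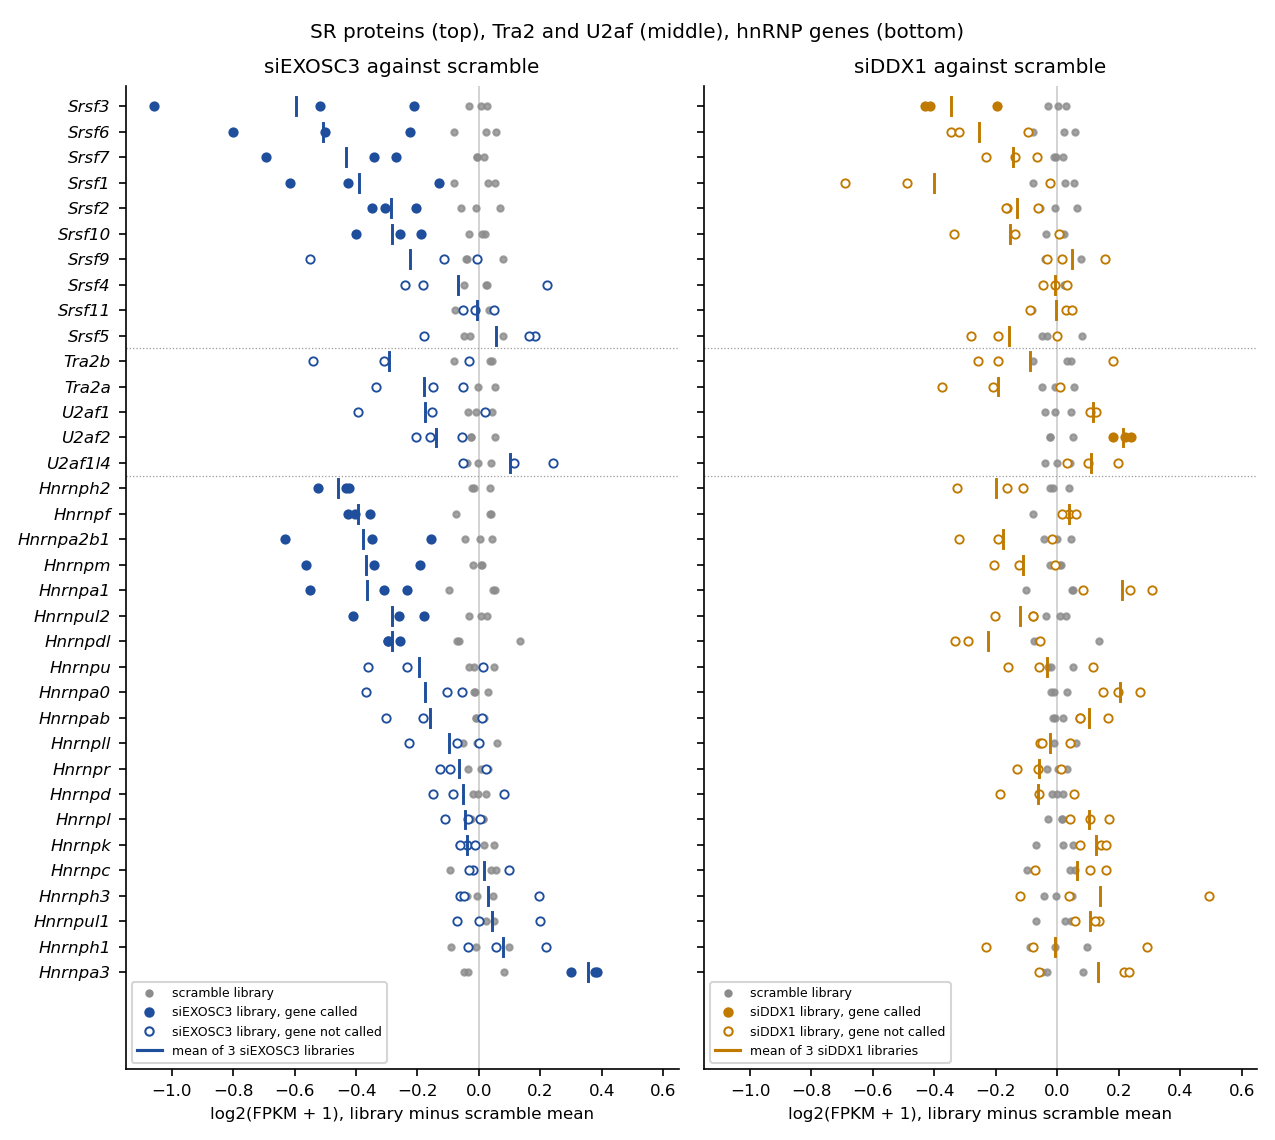
Each library's log2(FPKM + 1) minus the scramble mean of its table (horizontal axis) for the 35 members tested, grouped by family, with siEXOSC3 on the left and siDDX1 on the right. Filled points are members past an adjusted p of 0.05, vertical ticks are the means of 3 libraries, and the filled points lie left of the scramble points in siEXOSC3 except for Hnrnpa3.

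Among the SR genes, Srsf3 had the largest fall in siEXOSC3. Srsf3 encodes the smallest SR protein, which also links splicing to mRNA export, and lies on chromosome 17 from 29169618 to 29180311 on NCBIM37 (mm9), plus strand. Its FPKM was 168, 162 and 166 in scramble and 115, 143 and 78.9 in siEXOSC3 replicates 1, 2 and 3. All knockdown libraries lay under the lowest scramble library, and replicate 3 was the lowest. The log2 fold change was -0.60 (SE 0.180), with an adjusted p of 0.0361 from limma, and the level was 67.9% ± 19.4 of scramble (SD, n = 3). The fold change was -0.36 without siEXOSC3 replicate 3 and -0.79 without siEXOSC3 replicate 2. Leaving out scramble replicate 1, 2 or 3 or siEXOSC3 replicate 1 ended the call, as did no filter on low FPKM (adjusted p = 0.0876 from limma), and the adjusted p ran from 0.00241 to 0.103 over the alternatives.

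Srsf6, which binds exonic enhancers, lies on chromosome 2 from 162757264 to 162762857, plus strand. It was at 98.5, 89.6 and 96.4 FPKM in scramble and 66.6, 81.0 and 54.0 FPKM in siEXOSC3. The groups did not overlap, and the log2 fold change was -0.51 (SE 0.130; limma adjusted p = 0.0201). Srsf7, the closest paralog of Srsf3, is a minus strand gene of the same chromosome 17, from 80599429 to 80606629. Its FPKM was 96.4, 94.9 and 94.9 in scramble and 75.1, 79.0 and 58.7 in siEXOSC3, a log2 fold change of -0.43 (SE 0.106; limma adjusted p = 0.0169). Both genes lost the call without scramble replicate 1 or 3. Srsf6 also lost it without siEXOSC3 replicate 1 or with no filter on low FPKM (adjusted p = 0.0523 from limma), and Srsf7 without scramble replicate 2, with adjusted p-values of at most 0.0759 for Srsf6 and 0.0644 for Srsf7 over the alternatives.

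The other SR genes that decreased were Srsf1 (-0.39), Srsf2 (-0.29) and Srsf10 (-0.28), on the log2 scale. Srsf1 kept its call in 1 of the 6 fits that left out a library, the one without siEXOSC3 replicate 2, and lost it with no filter on low FPKM (limma adjusted p = 0.0725). With a block for the replicate number, Srsf1 and Srsf2 lost the call (limma adjusted p = 0.0654 and 0.0518). Srsf2 also lost its call without scramble replicate 1 or 3 or siEXOSC3 replicate 1, and Srsf10 without any 1 scramble library or siEXOSC3 replicate 1. Over the alternatives the limma adjusted p-values were at most 0.112, 0.0627 and 0.0781 for Srsf1, Srsf2 and Srsf10. The 4 that did not pass stood at -0.22 for Srsf9, -0.07 for Srsf4, -0.01 for Srsf11 and 0.06 for Srsf5. For Srsf5 the 95% interval of the log2 fold change was -0.18 to 0.29. Summed over the family, SR FPKM went from 1078 ± 10.6 in scramble to 886 ± 119 in siEXOSC3 (SD, n = 3), which is 82.2% of scramble, with 906, 994 and 759 FPKM in replicates 1, 2 and 3.

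Of the 20 hnRNP genes, 7 decreased in siEXOSC3 (35%, against 15.7% of all genes) and 1 increased (5%, against 16.7%). Hnrnph2, a binder of G runs encoded on chromosome X from 131135718 to 131141599, plus strand, went from 84.5, 87.7 and 84.2 FPKM in scramble to 63.5, 63.0 and 59.1 FPKM in siEXOSC3. The libraries of each group lay close together and the groups were far apart, with a log2 fold change of -0.46 (SE 0.0610; limma adjusted p = 0.00217). Hnrnpf, of the same subfamily and on chromosome 6 from 117850358 to 117875639, plus strand, went from 374, 372 and 345 FPKM to 274, 284 and 269.9 FPKM. Its log2 fold change was -0.39 (SE 0.0662; limma adjusted p = 0.00457). These 2 were the members with an adjusted p under 0.01 among those that decreased, and both stayed past 0.05 in all 14 alternatives.

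Hnrnpa2b1, which binds to exonic silencers and takes part in RNA transport, is a minus strand gene of chromosome 6, from 51410433 to 51419893. It was at 317, 336 and 327 FPKM in scramble and 256, 293 and 210.3 FPKM in siEXOSC3. The groups did not overlap, and the log2 fold change was -0.38 (SE 0.113; limma adjusted p = 0.0345). Without any 1 scramble library or siEXOSC3 replicate 1, or with no filter on low FPKM (adjusted p = 0.0732 from limma), it was no longer called (up to 0.10 over the alternatives). The fold change was -0.25 without siEXOSC3 replicate 3. The other decreases were Hnrnpm at -0.37, Hnrnpa1 at -0.36, and Hnrnpdl and Hnrnpul2 at -0.28 each, on the log2 scale. Hnrnpm and Hnrnpul2 lost the call without any 1 scramble library or siEXOSC3 replicate 1, and Hnrnpdl without scramble replicate 1 or 2 or siEXOSC3 replicate 1, with adjusted p-values of at most 0.0734, 0.0881 and 0.0721 for Hnrnpm, Hnrnpul2 and Hnrnpdl over the alternatives.

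Hnrnpa3, an A/B type hnRNP close in sequence to Hnrnpa1 and Hnrnpa2b1, was the single member that increased in siEXOSC3. It lies on chromosome 2 from 75497318 to 75507464, plus strand. Its FPKM was 122, 133 and 121 in scramble and 164, 154 and 163 in siEXOSC3, with no overlap. The log2 fold change was 0.35 (SE 0.0654; limma adjusted p = 0.00646), and it held in all 14 alternatives. An exon of AL772404.1 on the same strand overlaps the Hnrnpa3 gene in GENCODE vM1, and reads of the 2 genes cannot be separated there.

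**Figure D3:**
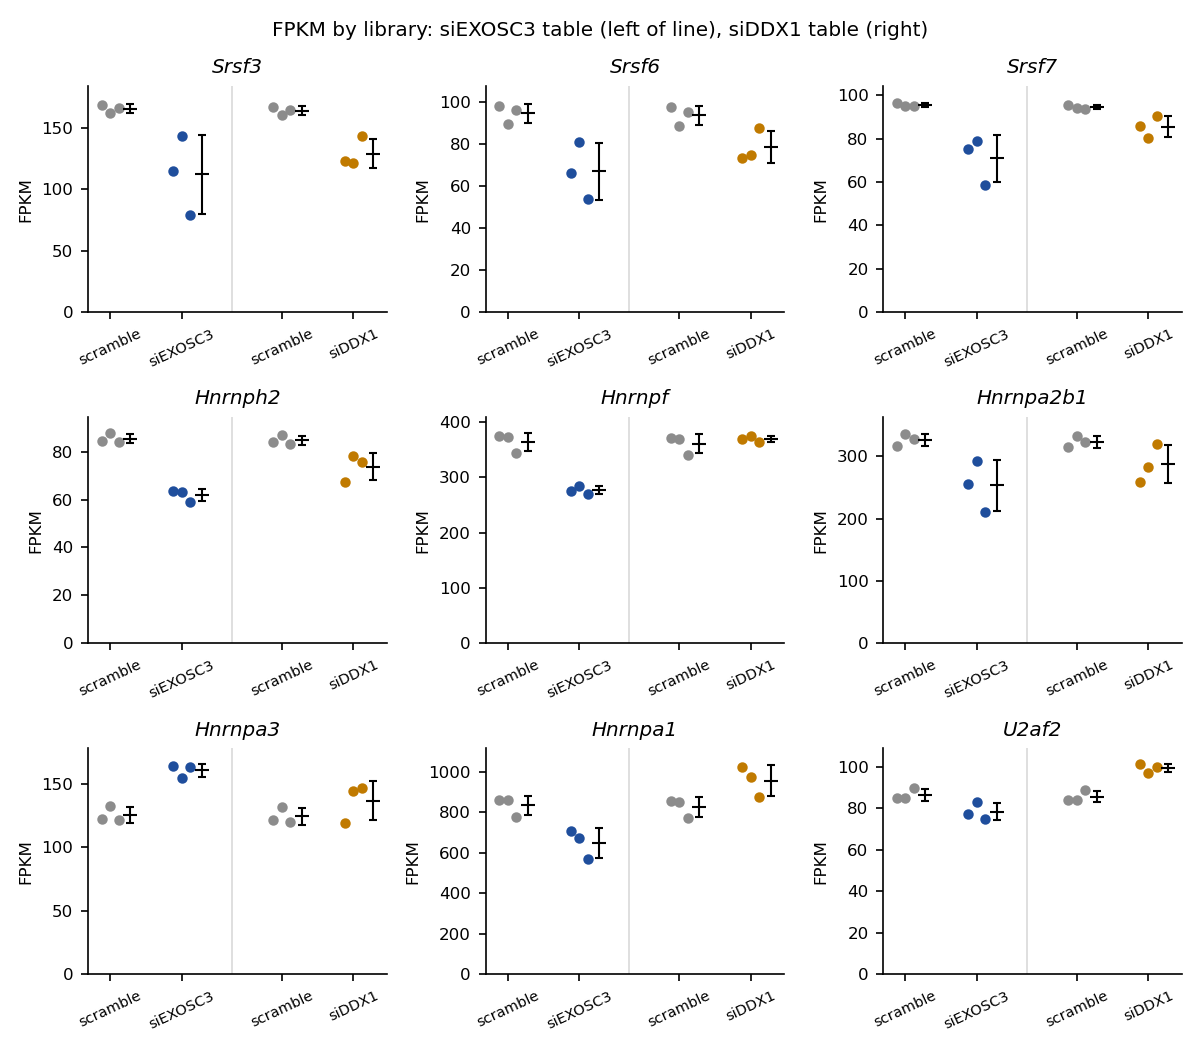
FPKM (vertical axes, starting at 0) of 9 members in each library, with the siEXOSC3 table left of the grey line and the siDDX1 table right of it. Points are libraries, bars show the mean and SD of 3, and in siEXOSC3 the points lie under scramble except for Hnrnpa3.

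The most abundant hnRNP genes differed in how far they moved. Hnrnpa1, on chromosome 15 from 103070945 to 103074445, plus strand, was at 863, 860.3 and 779 FPKM in scramble and 709, 672 and 569 FPKM in siEXOSC3, with a log2 fold change of -0.36 (SE 0.0982; limma adjusted p = 0.0240). The call was lost without scramble replicate 1 or 2 and with no filter on low FPKM (adjusted p = 0.0541 from limma; up to 0.0954 over the alternatives). Hnrnpk was at 376, 368 and 347 FPKM in scramble and at 354, 360.0 and 348 FPKM in siEXOSC3. The groups overlapped, and the 95% interval of its log2 fold change was -0.19 to 0.11.

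Hnrnpab was at 485, 495 and 485 FPKM in scramble and 430.1, 492 and 396 FPKM in siEXOSC3 (log2 fold change -0.16; limma adjusted p = 0.196). Hnrnpu was at 499, 472 and 477 FPKM in scramble and 410.4, 487 and 376 FPKM in siEXOSC3 (log2 fold change -0.19; limma adjusted p = 0.161). For both genes siEXOSC3 replicate 2 lay within the scramble range, and without it both were called. Summed hnRNP FPKM went from 4209 ± 89.1 to 3695 ± 271 (SD, n = 3), or 87.8% of scramble, and summed Tra2 and U2af FPKM from 599.5 ± 3.18 to 529.5 ± 66.5, or 88.3%. A lower FPKM in bulk RNA can come from fewer cells with a transcript or from less of it per cell, and these cannot be told apart.

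A count that needs no model was also made. In siEXOSC3, 16 members had all 3 libraries under the 3 scramble libraries (45.7%), where 25.9% of all genes did, and 1 had all 3 above (2.86%), where 23.8% did. The additional members under scramble were Hnrnpa0, Tra2a and U2af2. The smallest p that an exact permutation test can give with 3 libraries against 3 is 0.1, so it cannot pass 0.05 for any single gene.

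Because paralogs moved unequally, the balance within 3 subfamilies was also computed in each library. The choice of pairs was made with their values in view, so the ratios are a description. The ratio of Hnrnpa3 to Hnrnpa1 FPKM was 0.142, 0.154 and 0.155 in scramble and 0.231, 0.230 and 0.287 in siEXOSC3. In siDDX1 it was 0.116, 0.149 and 0.167, which overlaps scramble. The ratio of Hnrnph1 to Hnrnph2 had a mean of 3.21 ± 0.276 in scramble, 4.68 ± 0.324 in siEXOSC3 and 3.70 ± 0.609 in siDDX1 (SD, n = 3). The ratio of Srsf5 to Srsf6 was 1.64 ± 0.165 in scramble, 2.44 ± 0.265 in siEXOSC3 and 1.75 ± 0.0389 in siDDX1. All 3 ratios were higher in every siEXOSC3 library than in any scramble library. The genome holds processed pseudogenes of several hnRNP genes, and reads that match a paralog or pseudogene equally well make the levels of such genes less certain.

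**Figure D4:**
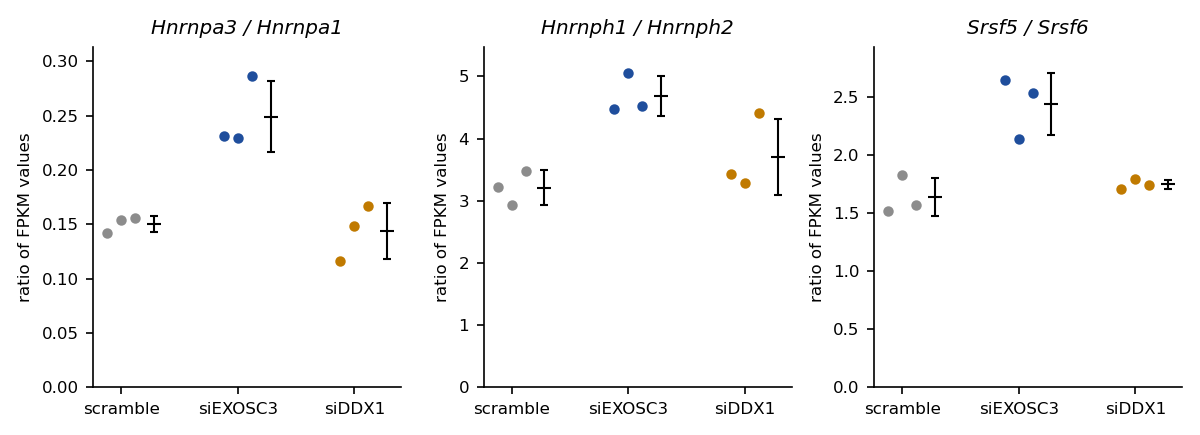
Ratio of FPKM between paralogs in each library (vertical axes, starting at 0) for Hnrnpa3 to Hnrnpa1, Hnrnph1 to Hnrnph2 and Srsf5 to Srsf6, with the scramble libraries taken from the siEXOSC3 table. Points are libraries and bars the mean and SD of 3, and the siEXOSC3 points lie above every scramble point in all 3 panels.

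The second comparison asks the same of the helicase. In siDDX1, Srsf3 decreased, 1 of 35 members (2.86%), against 5.03% of all 11104 genes tested, and U2af2 increased, 1 of 35 (2.86%), against 5.61%. Among genes with a mean of at least 5 FPKM the shares were 5.81% decreased and 6.23% increased. The median log2 fold change was -0.02 over the members, -0.15 over the SR genes, 0.11 over the Tra2 and U2af genes and 0.02 over the hnRNP genes. Summed SR FPKM was 1068 ± 9.67 in scramble and 936 ± 84.9 in siDDX1 (87.7% of scramble), while the hnRNP sum was 104% and the Tra2 and U2af sum 103% of scramble. Each knockdown was set against the same 3 scramble libraries, so the 2 comparisons share their controls.

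Srsf3 was at 167, 160.3 and 164 FPKM in scramble and 123, 121 and 143 FPKM in siDDX1 replicates 1, 2 and 3. The groups did not overlap, replicate 3 was nearest to scramble, and the log2 fold change was -0.35 (SE 0.0752; limma adjusted p = 0.0268). It was the 1 member called in both knockdowns. The call in siDDX1 held without siDDX1 replicate 3 and was lost without any other single library and with no filter on low FPKM (0.0518), with an adjusted p of 0.000983 to 0.115 over the alternatives.

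U2af2, the large U2AF subunit that binds the polypyrimidine tract, lies on chromosome 7 from 5013745 to 5031534, plus strand. It was at 84.1, 84.2 and 88.7 FPKM in scramble and 101, 97.2 and 99.9 FPKM in siDDX1. All siDDX1 libraries lay above scramble, with a log2 fold change of 0.21 (SE 0.0550; limma adjusted p = 0.0454). That call too was lost without any 1 library other than siDDX1 replicate 3, under quantile normalization and with no intensity trend (limma adjusted p = 0.114 and 0.0726), and the adjusted p ran from 0.0224 to 0.173 over the alternatives.

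Several SR genes had values under scramble in siDDX1 without passing the test. Srsf6 was at 97.7, 88.9 and 95.2 FPKM in scramble and 73.6, 75.0 and 87.8 FPKM in siDDX1 (log2 fold change -0.25; limma adjusted p = 0.0779). Srsf7 was at 95.7, 94.2 and 93.8 FPKM in scramble and 85.9, 80.4 and 90.3 FPKM in siDDX1 (log2 fold change -0.14; limma adjusted p = 0.156). Srsf1, the founding SR protein, had the lowest log2 fold change of the members, -0.40 (limma adjusted p = 0.117), and its siDDX1 libraries overlapped scramble. All 3 siDDX1 libraries were under scramble for 6 members (17.1%, against 17.8% of all genes), namely Hnrnph2, Hnrnpul2, Srsf2, Srsf3, Srsf6 and Srsf7. They were above it for 8 (22.9%, against 17.0%), namely Hnrnpa0, Hnrnpa1, Hnrnpab, Hnrnpk, Hnrnpl, Hnrnpul1, U2af1 and U2af2.

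For the SR genes 1 library stood nearer to scramble here too. Their median deviation was -0.22, -0.18 and -0.04 on the log2 scale in siDDX1 replicates 1, 2 and 3. In the same order it was -0.09, -0.01 and 0.05 for hnRNP genes and 0.10, 0.13 and 0.11 for Tra2 and U2af genes. Over all genes tested it was 0.0051, 0.00025 and -0.0020. Replicate 3 was the highest of the 3 for 21 of 35 members, an order that was not counted over all genes. Ddx1 was left at 22.4%, 22.9% and 27.8% of scramble in the same order, and the part of the residual Ddx1 in the order was not tested. Without siDDX1 replicate 3, 10 members decreased (Srsf1, Srsf3, Srsf5, Srsf6, Srsf7, Srsf10, Tra2a, Tra2b, Hnrnpa2b1 and Hnrnph2) and 3 increased (Hnrnpa0, Hnrnpa1 and U2af2). In that fit 15.4% of all genes decreased and 16.4% increased.

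Among the 20 hnRNP genes of siDDX1, 0 passed the test in limma, where 5.03% of all genes decreased and 5.61% increased. At an unadjusted p under 0.05, 2 had a fold change below 0 (Hnrnpdl and Hnrnph2) and 1 above 0 (Hnrnpa0). The share of all genes at that threshold was not counted. Hnrnpa0 was called after centring on the median, and without siDDX1 replicate 3 Hnrnpa0 and Hnrnpa1 increased and Hnrnpa2b1 and Hnrnph2 decreased. With a block for the replicate number, Hnrnpa0 and Hnrnpa1 increased and Hnrnpdl decreased. Hnrnph2 was at 83.8, 87.0 and 83.2 FPKM in scramble and 67.3, 78.2 and 75.5 FPKM in siDDX1 (log2 fold change -0.20; limma adjusted p = 0.0965). Hnrnpf was at 371, 369.6 and 341 FPKM in scramble and 369.6, 375 and 364 FPKM in siDDX1, and the 95% interval of its log2 fold change was -0.11 to 0.19. Hnrnpa3 was at 121, 132 and 119.8 FPKM in scramble and 119, 145 and 146 FPKM in siDDX1, with overlapping groups and a 95% interval of -0.07 to 0.34. Hnrnpa2b1 was at 314, 333 and 323 FPKM in scramble and 259, 283 and 319.6 FPKM in siDDX1, and replicate 3 again lay within the scramble range.

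Hnrnpab was at 482, 491 and 479.7 FPKM in scramble and 509.8, 509 and 542 FPKM in siDDX1, and Hnrnpk at 373, 365 and 343 FPKM in scramble and 398, 402 and 379.5 FPKM in siDDX1. Neither passed the test (log2 fold changes of 0.10 and 0.13; limma adjusted p = 0.335 and 0.249). After quantile normalization the log2 fold change of Hnrnpab was -0.03. Hnrnpu was at 495, 469 and 472 FPKM in scramble and 428, 459 and 519 FPKM in siDDX1, on both sides of scramble.

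The other genes of the pathway were counted from 2 lists. Of 39 SR protein kinases and SR related proteins, 37 were tested. In siEXOSC3 15 of them decreased (40.5%, against 15.7% of all genes) and 1 increased (2.70%, against 16.7%), with a median log2 fold change of -0.10. The largest changes were in Ddx46, an RNA helicase of the U2 particle (-0.56, SE 0.0873; limma adjusted p = 0.00370), Bclaf1 (-0.54, SE 0.110; adjusted p = 0.00896 from limma) and its relative Thrap3 (-0.50, SE 0.106; adjusted p = 0.0105 from limma). Clk1 and Clk3, kinases that phosphorylate SR proteins, had log2 fold changes of 0.36 and 0.32 without passing (limma adjusted p = 0.0737 and 0.0720). Their libraries overlapped scramble, and the related Clk2 and Clk4 stood at -0.03 and -0.06. Rsrc1, an SR related protein, was the list's single increase in both knockdowns, at 0.32 in siEXOSC3 and 0.36 in siDDX1. Rsrc1 lost the call in siEXOSC3 with no filter on low FPKM and in 4 of the 6 fits that left out a library (scramble replicate 1 or 3, or siEXOSC3 replicate 1 or 3). In siDDX1 the list had 0 decreases in limma, against 5.03% of all genes, and the 1 increase (2.70%), against 5.61%, with a median of -0.02. At an unadjusted p under 0.05, 6 had a fold change below 0 and 7 above 0. The share of all genes at that threshold was not counted. In siEXOSC3 the list's decreases numbered 10 without any 1 scramble library (5.17% to 8.27% of all genes in those fits) and 11 to 15 without any 1 knockdown library (7.73% to 22.3%), and its increases 0 to 4 (9.10% to 21.2%). In siDDX1 the decreases became 8 and the increases 10 without siDDX1 replicate 3, a fit in which 15.4% of all genes decreased and 16.4% increased.

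Of 30 hnRNP and related proteins under other symbols, 28 were tested. In siEXOSC3 8 decreased (28.6%, against 15.7% of all genes) and 5 increased (17.9%, close to the 16.7% of all genes), with a median log2 fold change of -0.11. Sfpq, a paraspeckle protein, had the largest fall at -0.73 (SE 0.165; limma adjusted p = 0.0128), from 155 ± 4.20 to 95.4 ± 26.1 FPKM (SD, n = 3). Rbmx, also called hnRNP G, fell in both knockdowns, by 0.49 on the log2 scale in siEXOSC3 and by 0.52 in siDDX1. There it was 1 decrease of 28 (3.57%), near the 5.03% of all genes, with 0 increases in limma against 5.61%. At an unadjusted p under 0.05 in siDDX1, 5 genes of the list had a fold change below 0 and 3 above 0. The share of all genes at that threshold was not counted. Msi1, an RNA-binding protein of neural progenitors, rose by 0.34 in siEXOSC3. With 1 library left out, the decreases of siEXOSC3 ran from 2 (without scramble replicate 1, where 5.17% of all genes decreased) to 12 (without siEXOSC3 replicate 2, 22.3%), and the increases from 0 (without scramble replicate 1, 9.10%) to 4 (without siEXOSC3 replicate 2, 21.2%). In siDDX1 the decreases numbered 4 without siDDX1 replicate 3 (15.4%) and 0 without any other single library (0.522% to 2.11%).

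The annotation of the members was compared with that of other genes, since FPKM per gene sums all transcripts. GENCODE vM1 on NCBIM37 holds a transcript marked for nonsense-mediated decay in 12 of the 35 members tested (34.3%), against 17.2% of 10028 tested genes with a GENCODE gene. Members had a median of 5 annotated transcripts, against 4 for these genes, and the part of that number in the share was not tested. The share was 5 of 10 for SR genes, namely Srsf1, Srsf2, Srsf3, Srsf5 and Srsf11. A retained intron transcript was annotated in 40% of members and 35.6% of all genes. Among the 13 members that decreased in siEXOSC3, 4 had a decay transcript, and among the other 22 tested, 8 had one. Exons of 11 members overlap those of another gene, and 5 of these are among the 14 members called in siEXOSC3: Hnrnpa3, Hnrnpf (with 4933440N22Rik), Hnrnpm (with March2), Srsf1 (with Gm11508) and Srsf2 (with Mfsd11). The libraries were nondirectional, so reads from opposite strands of such exons cannot be told apart.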

How the data were processed

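Nondirectional libraries of RNA depleted of ribosomal RNA (Ribo-zero) were sequenced as paired reads. The authors mapped them to mm9 with TopHat2 version 2.1.0 and ran Cuffdiff version 2.2.1, per the labels and their methods, and deposited FPKM per gene and library in 2 tables. A table holds 1 knockdown beside scramble. Cuffdiff's annotation of genes and its scaling of libraries are not given in the sources used here. A scramble library's values in 1 table exceed those in the other by a median factor of 1.00793, 1.00782 and 1.01188 for replicates 1, 2 and 3, so every test stayed within a table.

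FPKM are not counts and hold no depth, so no count model was used. Log2(FPKM + 1) of genes with a mean of at least 1 FPKM over the 6 libraries of a table was tested in R version 4.3.3 with limma version 3.58.1 (eBayes with an intensity trend, no covariates, two-sided). P-values were adjusted by Benjamini-Hochberg over all genes tested and called under 0.05. The pseudocount makes the fold changes of low genes too small. Tested on simulated data with 200 changed genes, the siEXOSC3 fit (11242 genes) called 82 of them at a log2 fold change of 0.3 and 187 at 0.5. The siDDX1 fit (11104 genes) called 72 and 187. The fits of the deposited values called more genes than were changed in the simulation, so these shares do not give their sensitivity. Plots were made in matplotlib version 3.10.9.

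The members, the lists and the tests were chosen with earlier results of these data known. Values by library are given for members called in both knockdowns, for the 3 largest called rises and falls of each family and knockdown, for the 5 most abundant members, and for members on opposite sides of scramble in the 2 knockdowns. Of the lists, the 3 called genes with the largest absolute change in each knockdown are named. Clk1, Clk2, Clk3 and Clk4 were named after their values had been seen. The fits were repeated at a pseudocount of 0.1, without the FPKM filter or with a mean of at least 5 FPKM, after quantile normalization or centring on the median, without the intensity trend, with a block for the replicate number, at an adjusted p under 0.01, and with each library left out. The alternatives for the 2 lists were added after the data had been seen. DRIP-seq data were not used here.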

Additional observations from a re-analysis of the deposited data

Results flagged for a closer look

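3 of the 35 members tested (8.57%) had all libraries of both knockdowns on opposite sides of scramble, and so did 310 of the 11054 genes tested in both tables (2.8%), where the knockdowns share their scramble libraries. Hnrnpa1 had a log2 fold change of -0.36 in siEXOSC3 and 0.21 in siDDX1, where it was -0.0296 after quantile normalization. It was at 709, 672 and 569 FPKM in siEXOSC3, and in the siDDX1 table at 857, 854 and 770.3 FPKM in scramble and 1022, 973 and 876 FPKM in siDDX1. U2af2 had -0.14 and 0.21, with 84.8, 84.8 and 89.7 FPKM in scramble and 77.2, 83.1 and 74.9 FPKM in siEXOSC3. Hnrnpa0, an intronless hnRNP gene, had -0.18 and 0.21. It was at 80.9, 83.3 and 80.7 FPKM in scramble and 75.9, 78.6 and 63.0 FPKM in siEXOSC3, and in the siDDX1 table at 80.3, 82.7 and 79.8 FPKM in scramble and 97.8, 92.9 and 89.7 FPKM in siDDX1. Of these 6 changes, Hnrnpa1 in siEXOSC3 and U2af2 in siDDX1 passed the test in limma, and Hnrnpa0 in siDDX1 had an adjusted p of 0.0569. The difference between the knockdowns was not tested, since the tables were scaled separately and share their scramble libraries.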

How the results depend on the processing

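In siEXOSC3, the 13 members that decreased became 8 with no filter on low FPKM (7.63% of all genes in that fit; Srsf1, Srsf3, Srsf6, Hnrnpa1 and Hnrnpa2b1 were lost) and 2 at an adjusted p under 0.01 (4.27%), and 2 to 19 when 1 library was left out. The 1 that increased stayed at 1 throughout (7.73% to 21.2% of all genes), and the members' median log2 fold change ran from -0.24 to -0.09 with 1 library left out. In siDDX1, the 1 decrease became 0 with no filter (1.94% of all genes) and at an adjusted p under 0.01 (0.747%), and 0 to 10 with 1 library left out (0.522% to 15.4%). The 1 increase became 0 under quantile normalization (5.21% of all genes), with no intensity trend (4.88%) and at an adjusted p under 0.01 (0.901%). It became 2 with centring on the median (6.73%) and 0 to 3 with 1 library left out (0.856% to 16.4%). The median in siDDX1 ran from -0.098 to -0.0034 with 1 library left out and was 0.0030 after centring on the median, which moved the median of all genes to 0.025. With the replicate number as a block, siEXOSC3 had 11 decreases (9.42% of all genes; Srsf1 and Srsf2 were lost, with limma adjusted p = 0.0654 and 0.0518) and 1 increase, and siDDX1 had 3 decreases (Srsf3, Srsf6 and Hnrnpdl; 7.28%) and 3 increases (U2af2, Hnrnpa0 and Hnrnpa1; 9.77%). The deviations of same-numbered libraries correlated at 0.035, -0.31 and -0.13 in siEXOSC3 and at -0.012, 0.38 and 0.37 in siDDX1, where 2 of the 3 siDDX1 libraries and 0 of the 3 siEXOSC3 libraries correlated best with their own number. Since not every pair was over 0.1 the numbers were not taken to pair the libraries, and whether same-numbered siDDX1 and scramble libraries share a batch was not tested. In siDDX1, the log2 fold changes of Hnrnpa1 (-0.0296), Hnrnpab (-0.0283) and Hnrnpf (-0.0238) turned below 0 under quantile normalization. With 1 library left out, Hnrnpf ran from -0.00195 (without scramble replicate 3) to 0.0591, and Hnrnpu from -0.109 to 0.0284 (without siDDX1 replicate 1). The cause was not tested. In siEXOSC3, the 8 decreases and 5 increases of hnRNP proteins under other symbols became 5 and 3 with no filter (7.63% and 10.8% of all genes), 5 and 4 with no intensity trend (14.4% and 16.3%), 4 and 2 with the replicate block (9.42% and 12.4%), and 1 and 0 at an adjusted p under 0.01 (4.27% and 7.73%). The 15 decreases of SR kinases and SR related proteins became 7 at an adjusted p under 0.01 and stayed between 10 and 15 under the others, and their 1 increase became 0 with no filter, with the replicate block and at an adjusted p under 0.01. In siDDX1, under the alternatives with all libraries, the latter list had 0 to 2 decreases and 0 to 5 increases, and the former 0 to 3 decreases and 0 increases. In those fits 0.747% to 7.28% of all genes decreased and 0.901% to 9.77% increased. With 3 libraries a group and no depth in FPKM, changes of about 0.3 on the log2 scale were often missed in simulated data.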
